A study of Mus musculus with 6 samples.

Results

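Thyroid hormone acts on skin through a short chain of proteins that each cell carries itself. The prohormone thyroxine (T4) and the active triiodothyronine (T3) enter through membrane transporters, deiodinases then activate or inactivate the hormone inside the cell, and T3 binds nuclear receptors that sit on DNA as heterodimers with retinoid X receptors. The type II deiodinase, D2, makes T3 from T4 and so can change the T3 level of a cell without a change of T3 in the blood. Hair follicles and keratinocytes are known targets of the hormone.

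The RNA levels of 4 genes of this chain were examined in keratinocytes of the hair bulge (HB) lineage. They were *Dio2* (D2), *Thra* and *Thrb* (the nuclear receptors TRα and TRβ) and *Slc16a10* (MCT10, a transporter of aromatic amino acids and T3). The genes were taken by symbol from the count table, where all 4 were present among 22295 genes, and all 4 reached 10 counts in all libraries. They were chosen with their levels in these libraries known, so the differences between the genotypes in these 4 genes are given as a description. Where a count of those that passed a test over all genes is given, it stands beside the share of all genes that passed, and nothing is drawn from it.

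GFP-positive keratinocytes were sorted from mice that carry K19(Cre-ERT) and the mTmG reporter, either without further alleles (WT, 3 libraries) or with Itga3 fl/fl (KO, 3 libraries), all bred on FVB (FVB/N in the methods of the study). The Cre is driven by the K19 promoter and is active only after tamoxifen, so that GFP marks HB cells that recombined and their progeny. Both genotypes received tamoxifen for 4 days at 10 mg/ml from 6 weeks of age, 1 dose of 30 μg DMBA (a carcinogen) at 7 weeks, and TPA (a phorbol ester, 12.34 μg per application) bi-weekly for 2 weeks, in 200 μl acetone. For tamoxifen the methods of the study give another concentration and age. Tumors had not formed at this stage, and the comparison asks which transcripts of HB-derived cells depend on integrin α3β1.

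Libraries held 20578309 to 23670507 counts. Columns of the table name single mice and no label ties them to sample numbers, so the libraries are lettered a to c within each genotype, and values per library follow that order. *Itga3* was at 371, 252 and 271 CPM (counts per 1e+06 counts of the library, after TMM scaling) in WT libraries and at 131, 124 and 134 CPM in KO libraries. Of 7 markers of basal and bulge keratinocytes all were detected, with summed levels of 31307 to 48051 CPM in WT and 36452 to 42430 CPM in KO libraries.

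The *Dio2* transcript (ENSMUSG00000007682) comes from chromosome 12, 90724554 to 90738438 on the minus strand of GRCm38. D2 is a selenoprotein, and selenocysteine is encoded by TGA, a codon that elsewhere ends translation. The annotated coding sequence (GENCODE, GRCm38) of 801 bases holds 2 such codons in frame, at codons 130 and 263 of 267, counted from the start codon and with the stop codon included. Both lie in the last exon and are annotated as selenocysteine. They are shown with the coding bases around them, 5′ to 3′ on the transcript's strand, with the TGA in capitals.
Dio2 codon 130, chr12:90729823-90729825: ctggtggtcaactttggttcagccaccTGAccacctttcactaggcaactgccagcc
Dio2 codon 263, chr12:90729424-90729426: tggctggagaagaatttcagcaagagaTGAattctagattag

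RefSeq places a start site of *Dio2* at base 90739038, which is 600 bases upstream of the gene's end in the count table. The window from 250 bases before to 50 bases after it (RefSeq, GRCm38.p6, minus strand, chr12:90738989-90739288) is shown because *Dio2* is a known target of cyclic AMP signaling. The capitals mark, in order, a full cyclic AMP response element (TGACGTCA, searched on both strands) that begins 95 bases before the start site and a TATAAA box (searched on the sense strand) that begins 30 bases before it.
Dio2 promoter: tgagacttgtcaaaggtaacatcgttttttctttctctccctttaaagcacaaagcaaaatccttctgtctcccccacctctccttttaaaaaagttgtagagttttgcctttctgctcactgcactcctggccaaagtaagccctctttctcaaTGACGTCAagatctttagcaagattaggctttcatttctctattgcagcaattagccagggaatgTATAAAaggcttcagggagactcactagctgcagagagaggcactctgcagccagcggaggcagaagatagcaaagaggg

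Of 32851 promoter windows of this length, 588 (1.79%) held TGACGTCA and 8.32% held TATAAA. Windows were at hand for 3 of the 4 genes, and the others, 2 for *Thrb* and 1 for *Slc16a10*, held no TGACGTCA, while 1 of those of *Thrb* held TATAAA. A DR4 element (the direct repeat of receptor half-sites, searched on both strands) was in none of these 4 windows and in 0.0152% of all windows.

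*Dio2* was higher in KO than in WT libraries. Its level was 5.87, 9.71 and 6.39 CPM in WT libraries, on 128 to 212 counts, and 49.4, 23.0 and 44.9 CPM in KO libraries, on 490 to 1163 counts. The groups did not overlap, and the lowest KO library still lay 2.37-fold above the highest WT library. The mean was 7.33 ± 2.08 CPM (SD, n = 3) in WT against 39.1 ± 14.1 CPM (SD, n = 3) in KO, a log2 fold change of 2.42 ± 0.27 (standard error, SE, 95% interval 1.82 to 3.01), or 5.34-fold. KO b stood apart from the other KO libraries, at about the middle between them and the WT level on a linear scale. Counting error was small beside this spread, at 8.84% for the smallest count against a coefficient of variation of 28.4% in WT and 36.2% in KO. Among 13054 genes that reached 10 counts in all libraries, 4 had a larger log2 fold change toward KO.

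**Figure D1:**
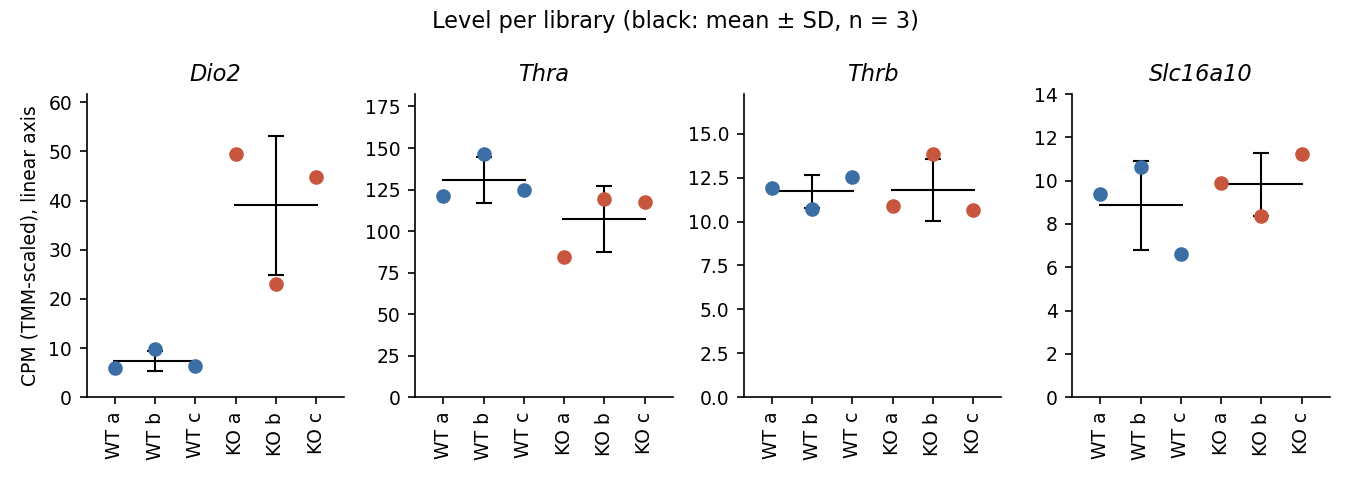
Level of Dio2, Thra, Thrb and Slc16a10 (CPM scaled by TMM factors, linear axis from 0, a scale of its own per gene) in each of 3 WT (blue) and 3 KO (red) libraries, with the mean and SD of each genotype in black. Dio2 lay between 5.87 and 9.71 CPM in WT and between 23.0 and 49.4 CPM in KO, whereas Thrb and Slc16a10 overlapped between the genotypes.

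Of the 4 genes, *Dio2* alone had an adjusted p below 0.05 in edgeR's test over all genes, where 0.673% of 21681 tested genes passed, 0.461% as higher and 0.212% as lower in KO. The CPM ranges did not overlap for 2 of the 4, *Dio2* (KO above) and *Thra* (KO below), against 16.3% of all tested genes. Without WT c or without KO a none of the 4 passed in edgeR (5 and 10 of all genes did), and none passed in limma-voom or in edgeR after either filter on low counts.

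*Thra* was the most abundant of the 4. It lies on chromosome 11 (ENSMUSG00000058756, 98740638 to 98769006), 3.66 Mb from *Itga3*, and encodes TRα, of which one splice product binds T3 and another does not. Its level was 121, 146 and 125 CPM in WT libraries and 84.5, 119.6 and 117 CPM in KO libraries. KO a was the lowest library, and the other KO libraries came close to the lowest WT library. The mean was 131 ± 13.6 CPM (SD, n = 3) in WT against 107 ± 19.7 CPM (SD, n = 3) in KO, a log2 fold change of −0.29 ± 0.13 (SE, 95% interval −0.58 to 0.00). On counts scaled by library size alone the groups overlapped, with 118.7 CPM in WT a and 119.2 CPM in KO b.

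The gene count cannot tell the products of *Thra* apart. Of its 4 coding transcripts in GENCODE, the longest (coding length 1479 bases) runs to the gene's end and shares 263 exonic bases with *Nr1d1*, the gene of the clock repressor REV-ERBα on the opposite strand. A shorter one (coding length 1233 bases) ends before that overlap. Reads were counted by strand. *Nr1d1* itself was at 85.4, 39.7 and 13.1 CPM in WT libraries and 24.7, 43.4 and 42.5 CPM in KO libraries, with the spread of the WT libraries covering all KO libraries, and its log2 fold change of −0.32 ± 0.47 (SE) did not pass (adjusted p = 0.802, edgeR).

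*Thrb* was at the same mean level in both genotypes. It lies on chromosome 14 (ENSMUSG00000021779, 17660960 to 18038088) and encodes TRβ. It stood at 11.9, 10.7 and 12.6 CPM in WT libraries and at 10.9, 13.8 and 10.6 CPM in KO libraries. The lowest and the highest library were both KO, and the groups overlapped throughout. The mean was 11.7 ± 0.934 CPM (SD, n = 3) in WT against 11.8 ± 1.78 CPM (SD, n = 3) in KO, with a log2 fold change of 0.01 and a 95% interval from −0.32 to 0.34.

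*Slc16a10* (ENSMUSG00000019838, chromosome 10, 40033535 to 40142254, minus strand) was at 9.36, 10.6 and 6.61 CPM in WT libraries and at 9.90, 8.35 and 11.2 CPM in KO libraries. The lowest library was WT c and the highest KO c, with the others in between in mixed order. The mean was 8.87 ± 2.05 CPM (SD, n = 3) in WT against 9.82 ± 1.44 CPM (SD, n = 3) in KO, a log2 fold change of 0.15 with a 95% interval from −0.28 to 0.57.

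Levels were compared between genes after division by the length of all exons (CPM per kilobase). In WT libraries the order was *Thra* (28.3 ± 2.95), *Thrb* (1.58 ± 0.126), *Dio2* (1.26 ± 0.358) and *Slc16a10* (1.21 ± 0.279, SD, n = 3 each). The place of *Dio2* (1.01 to 1.67) could not be fixed beyond the spread, since it overlapped both *Thrb* (1.45 to 1.70) and *Slc16a10* (0.899 to 1.44). *Thrb* lay above *Slc16a10* in each WT library, in WT b by a very small margin. *Thrb*, *Dio2* and *Slc16a10* lay at percentiles 47.9 to 50.1 of all tested genes with a length, and *Thra* at percentile 92.0. In KO libraries *Dio2* (6.72 ± 2.43) came after *Thra* (23.2 ± 4.27) and moved to percentile 69.5. It lay between 3.95 and 8.50, above *Thrb* (1.44 to 1.87) in each KO library, while the ranges of *Thrb* and *Slc16a10* (1.13 to 1.53) overlapped in KO. By this measure, which takes all transcripts of a gene together, *Thra* exceeded *Thrb* by 12.5-fold to 21.9-fold within each library.

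**Figure D2:**
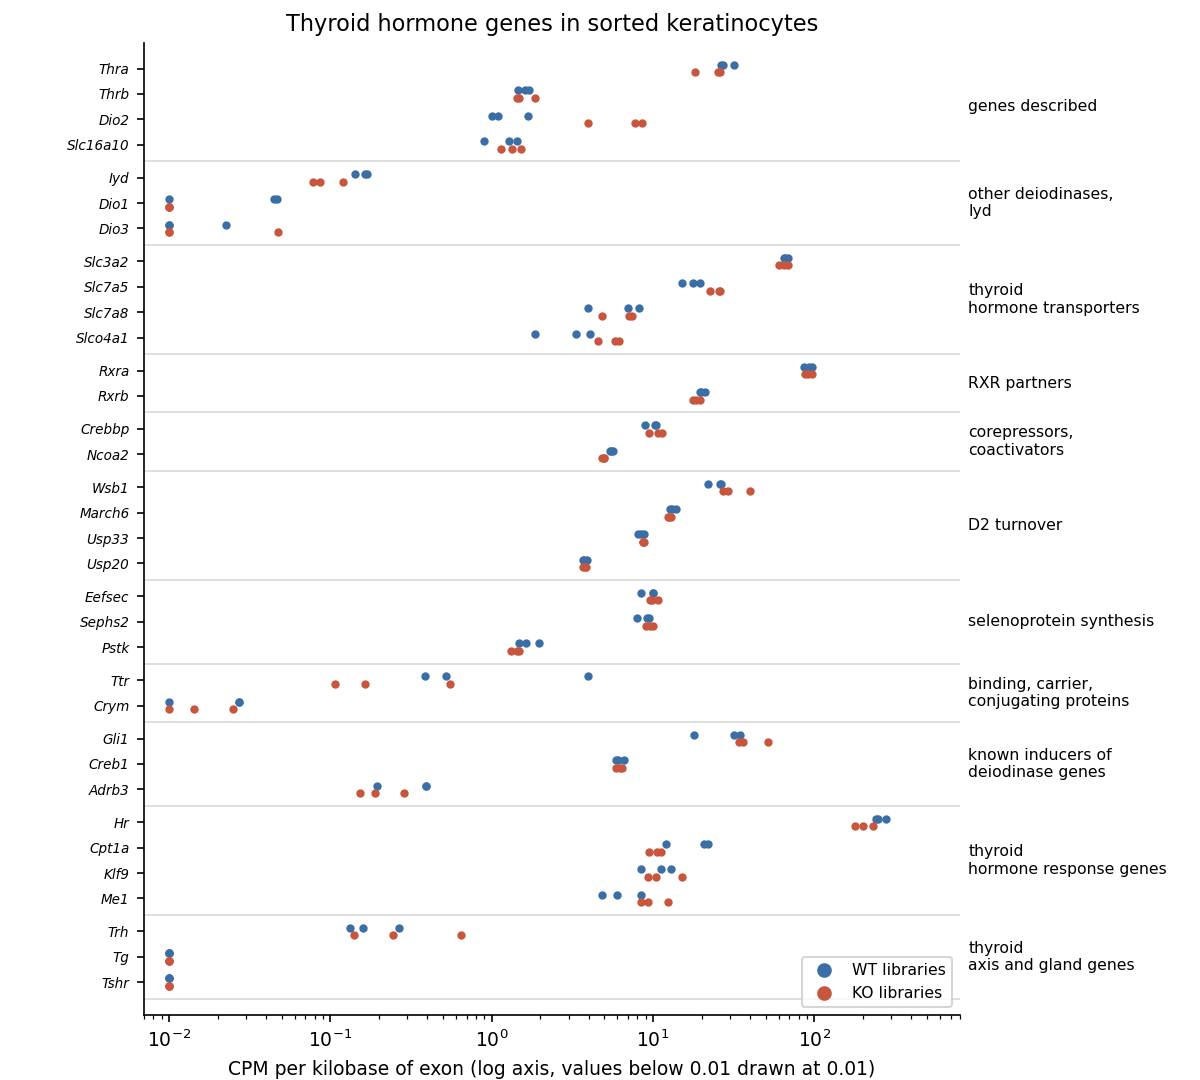
Level of the genes of the thyroid hormone lists that the text names (CPM per kilobase of exon, log axis, values below 0.01 drawn at 0.01) in 3 WT (blue) and 3 KO (red) libraries, grouped by role. Dio1 and Dio3 sit at the bottom of the scale, Thra near 28.3 in WT, and Dio2 moves from 1.26 to 6.72 between the genotypes.

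*Dio2* was the only deiodinase gene with more than 3 counts in any library. *Dio1*, which encodes the deiodinase of liver and kidney, had 2 counts in WT b, 2 in WT c and 0 in the other libraries. *Dio3*, which encodes the enzyme that inactivates T4 and T3, had 1 count in WT a, 2 in KO c and 0 in the others. Both were below the level of 3 counts per library (0.128 to 0.145 CPM, counting error only), so no difference in them was detectable at this depth. *Iyd*, the dehalogenase that recycles iodide in the thyroid, stood at 0.256 ± 0.0238 CPM in WT and 0.154 ± 0.0349 CPM in KO (SD, n = 3 each). These levels rested on 5 to 6 counts per library in WT and 3 to 4 in KO, and *Iyd* did not pass (adjusted p = 0.681, edgeR).

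Around these genes, 65 further genes of the pathway were listed by role. Of these, 56 had a count in at least 1 library and were tested, and 41 reached 10 counts in all 6 libraries. None passed in edgeR after adjustment over all genes, neither higher nor lower in KO (0 of 56, against 0.673% of all tested genes), and 11 of 56 had an unadjusted p below 0.05, against 11.5% of all tested genes. DESeq2 called 3 of the 56 and 2.52% of all tested genes, and limma-voom called 0 of the 56 and 0.111% of all. The median log2 fold change was 0.00 for the 56 genes, as for all tested genes, with 29 above and 27 below 0. KO lay wholly above WT for 4 and wholly below for 7, against 8.03% and 8.23% of all tested genes.

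Among the transporters, 5 of 8 listed genes were tested and none passed in edgeR. *Slc7a5*, which encodes the light chain LAT1 of an amino acid transporter that also carries T3 and T4, stood at 72.7, 56.3 and 65.9 CPM in WT libraries and at 95.6, 84.2 and 96.2 CPM in KO libraries. All KO libraries lay above all WT libraries, but the log2 fold change of 0.50 ± 0.11 (SE) missed the threshold (adjusted p = 0.0656, edgeR). The heavy chain gene *Slc3a2*, the most abundant of the transporter genes, had a log2 fold change of −0.05 ± 0.09 (SE).

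*Slco4a1*, a member of the organic anion transporters, stood at 15.9, 19.4 and 8.95 CPM in WT libraries and at 28.0, 22.0 and 29.6 CPM in KO libraries. The groups did not overlap, and the log2 fold change was 0.85 ± 0.23 (SE, adjusted p = 0.140, edgeR). DESeq2 called both *Slc7a5* and *Slco4a1*. *Slc7a8*, the light chain LAT2, had a log2 fold change of 0.01 with a 95% interval from −0.50 to 0.52.

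The partners of the receptors were abundant and close to equal. *Rxra*, the main retinoid X receptor of the epidermis, was at 503 ± 29.7 CPM in WT and 502 ± 27.8 CPM in KO (SD, n = 3 each), a log2 fold change of −0.00 with a 95% interval from −0.21 to 0.20. *Rxrb* was at 80.1 ± 3.14 and 73.8 ± 3.47 CPM, and *Rxrg* had no count. Per kilobase, *Rxra* was 2.73-fold to 4.77-fold above *Thra* in each library. Of 12 corepressors and coactivators, none passed. Their log2 fold changes lay between −0.16 (*Ncoa2*, a coactivator) and 0.08 (*Crebbp*, a histone acetyltransferase).

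Among the 4 genes for turnover of the D2 protein, none passed in edgeR. *Wsb1*, the ubiquitin ligase subunit that recognizes D2, stood at 103, 87.1 and 105 CPM in WT libraries and at 160, 117 and 108 CPM in KO libraries. KO a was the highest library, and the groups did not overlap by a small margin (log2 fold change 0.38, standard error 0.14, adjusted p = 0.300). *March6*, another ligase of D2, and the deubiquitinases *Usp33* and *Usp20* had log2 fold changes from −0.07 to 0.06. The 5 genes for selenoprotein synthesis had log2 fold changes from −0.27 (*Pstk*, the kinase of the selenocysteine tRNA) to 0.10 (*Sephs2*, a selenophosphate synthetase). None passed, and the most abundant per kilobase was *Eefsec*, the elongation factor of selenocysteine, with 0.08 (standard error 0.12).

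**Figure D3:**
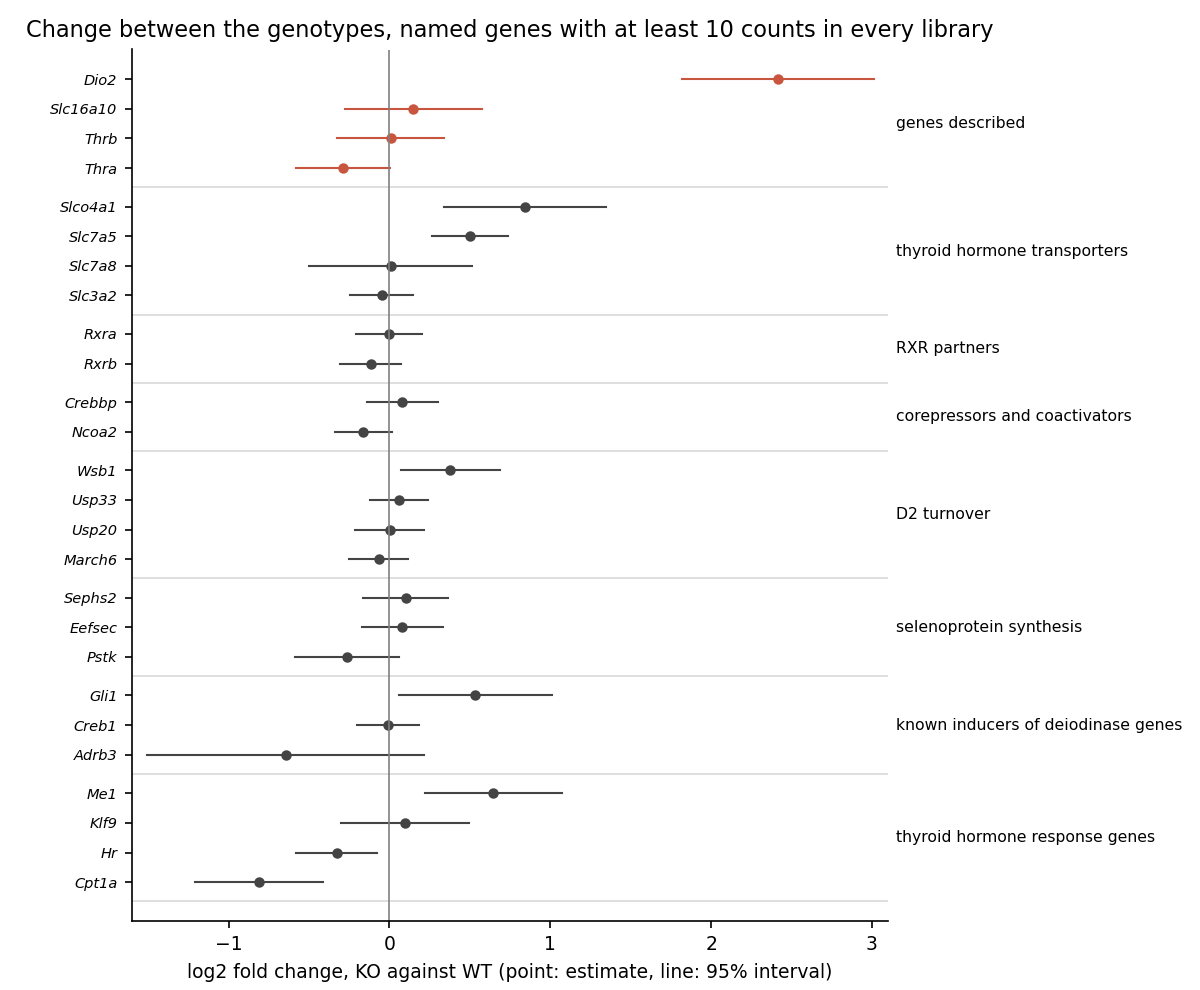
Log2 fold change of KO against WT (points) with its 95% interval (lines) for genes of the pathway lists that the text names and that reached 10 counts in all libraries, grouped by role, with the 4 genes described here in red. The interval of Dio2 runs from 1.82 to 3.01, and the next highest bound among the genes plotted is that of Slco4a1, at 1.35.

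Of 8 genes known to act on deiodinase genes in other tissues, none passed in edgeR. *Adrb3*, the receptor that raises *Dio2* in brown fat, was low, at 1.11 ± 0.386 CPM in WT and 0.707 ± 0.234 CPM in KO (SD, n = 3 each). *Creb1*, which encodes a factor that binds the cyclic AMP response element, had a log2 fold change of −0.01 ± 0.09 (SE), and *Gli1*, a hedgehog target and effector, one of 0.54 (standard error 0.22, adjusted p = 0.367).

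Genes known to respond to T3 showed no common direction. Of 9 listed, 8 were tested and 5 had a positive and 3 a negative log2 fold change, with a median of 0.06 against 0.00 over all tested genes. KO lay wholly above WT for 1 of the 8 and wholly below for 3, against 8.03% and 8.23% of all tested genes. An unadjusted p below 0.05 (edgeR) was reached by 4 of the 8, against 11.5% of all, and none passed after adjustment. *Klf9*, a direct target of the T3 receptors, was at 54.1, 61.9 and 40.8 CPM in WT libraries and 72.5, 50.5 and 44.5 CPM in KO libraries. The groups overlapped, and the log2 fold change was 0.10 with a 95% interval from −0.30 to 0.50. *Hr* (hairless), a corepressor gene of the hair cycle that is itself a T3 target, was at 1671, 1710 and 1915 CPM in WT libraries and at 1239, 1386 and 1592 CPM in KO libraries. Each KO library lay below each WT library, with a log2 fold change of −0.33 ± 0.12 (SE, adjusted p = 0.278, edgeR).

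*Cpt1a*, the gate of fatty acids into mitochondria, stood at 92.1, 167 and 159 CPM in WT libraries and at 85.2, 72.6 and 80.4 CPM in KO libraries. Each KO library lay below each WT library, with WT a closest to them, and the log2 fold change of −0.81 ± 0.18 (SE) missed the threshold (adjusted p = 0.0708, edgeR). It was below the threshold in DESeq2 (adjusted p = 0.00515) and, in edgeR, without WT a (adjusted p = 0.000827). *Me1*, the malic enzyme, differed the other way, with 24.7 ± 7.06 CPM in WT and 38.7 ± 7.73 CPM in KO (SD, n = 3 each) and a log2 fold change of 0.65 ± 0.19 (SE, adjusted p = 0.183).

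Carrier and gland genes were near or below detection. *Ttr*, the plasma carrier of T4, had 103 counts in WT b and 3 to 14 in the other libraries (adjusted p = 0.257, edgeR, for a log2 fold change of −2.56). *Crym*, the cytosolic T3-binding protein, did not exceed 3 counts in any library. The TSH receptor gene *Tshr* and the thyroglobulin gene *Tg* had at most 1 count per library, and *Trh*, the most abundant per kilobase of this group, was at 0.257 ± 0.0967 CPM in WT and 0.475 ± 0.368 CPM in KO (SD, n = 3 each).

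The levels of markers were set beside the difference in *Dio2*, which was measured in bulk RNA, where more cells of a type and more RNA per cell cannot be told apart. In brown fat and muscle, where *Dio2* is best known, the defining markers were near 0 here. Of 5 adipocyte markers only *Lep* exceeded 3 counts in any library, with *Adipoq*, *Plin1*, *Fabp4* and *Ucp1* at or below it, and the summed level was 0.138 to 0.275 CPM in WT and 0.213 to 0.242 CPM in KO. None of 4 skeletal muscle markers in the table exceeded 3 counts, including *Acta1* and *Ckm*. Summed levels of immune markers (4 of 5 above 3 counts, 3.70 to 5.37 CPM in WT and 2.72 to 6.28 CPM in KO), endothelial markers (2 of 3, 2.29 to 3.44 and 2.64 to 3.42 CPM), smooth muscle markers (3 of 3, 3.34 to 8.08 and 4.34 to 8.08 CPM) and melanocyte markers (5 of 5, 6.33 to 13.4 and 10.3 to 11.7 CPM) overlapped between the genotypes. Of the Merkel cell markers, which K19 also marks, only *Sox2* was in the table used here, with at most 1 count.

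Fibroblast markers (5 of 6 above 3 counts) summed to 116 to 178 CPM in WT and to 48.1 to 80.3 CPM in KO libraries. The sum was lower in KO and came mostly from *Col1a1* (mean 85.4 CPM in WT, 37.5 CPM in KO) and *Col1a2* (61.9 and 27.3 CPM). *Pdgfra* had a lower mean in KO as well, at 1.02 and 0.414 CPM. *Lum* did not exceed 3 counts, and *Col3a1* had no count in WT libraries and 3, 0 and 29 counts in KO libraries. The proteoglycan gene *Dcn* was the only gene of this list that reached 10 counts in all libraries and had a higher mean in KO. It stood at 0.826, 1.69 and 0.573 CPM in WT libraries, on 13 to 37 counts, and at 5.44, 1.55 and 4.11 CPM in KO libraries, on 33 to 128 counts. *Dcn* was set beside *Dio2* after its values were seen, and it went against the sum of its list. For both genes WT b was the highest of the WT libraries, and the KO libraries fell from a to c to b. For *Dcn*, however, WT b lay above KO b and the groups overlapped (log2 fold change 1.84, adjusted p = 0.113, edgeR). Of the 7 keratinocyte markers, *Cd34* alone passed in edgeR, against 0.673% of all tested genes, and its adjusted p of 0.0462 was close to the threshold of 0.05. It stood at 881, 806 and 872 CPM in WT libraries and at 399, 625 and 526 CPM in KO libraries. The other markers overlapped between the genotypes, with log2 fold changes of 0.18 for *Krt14*, 0.16 for *Sox9*, −0.03 for *Krt5*, −0.11 for *Lhx2*, −0.21 for *Krt15* and −0.47 for *Lgr5*. The part of these cells in the level of *Dio2* was not tested.

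**Figure D4:**
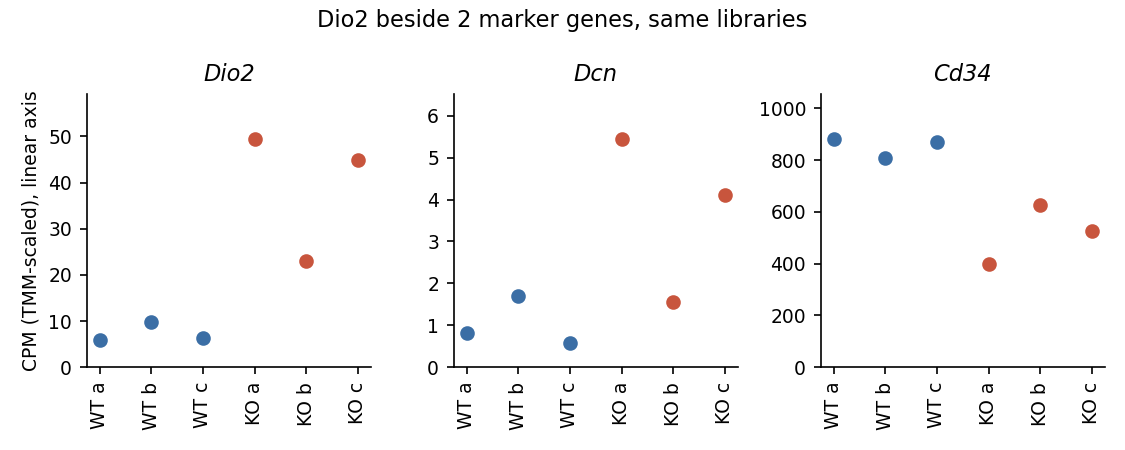
Level of Dio2, the fibroblast-list gene Dcn and the bulge marker Cd34 (CPM scaled by TMM factors, linear axis from 0, a scale of its own per gene) in the same 3 WT (blue) and 3 KO (red) libraries. KO a, b and c follow the order 49.4, 23.0 and 44.9 CPM for Dio2, 5.44, 1.55 and 4.11 CPM for Dcn, and 399, 625 and 526 CPM for Cd34. Dcn and Cd34 were picked for this plot after their values were seen, and the summed fibroblast list was lower in KO.

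The genes whose log2 CPM ran most like that of *Dio2* over the 6 libraries were *Khdrbs3*, an RNA-binding protein gene (Pearson r = 0.995), *Tfap2a*, which encodes the epidermal transcription factor AP-2α (0.993), and *Adcy7*, an adenylyl cyclase gene (0.991), out of 13053 genes compared. These points share the gap between the genotypes, so r is a description only, and 102 genes had r above 0.95. The log2 fold change was 1.31 for *Khdrbs3* (4.78 to 11.9 CPM), 0.32 for *Tfap2a* (156 to 195 CPM) and 1.03 for *Adcy7* (27.7 to 56.4 CPM). Most like *Thra* were *Gm10615* (0.992), *Xylt2* (0.992), a xylosyltransferase gene of chromosome 11, and *Xndc1* (0.989). For *Thrb* they were the mitochondrial ribosomal genes *Mrpl44* (0.965) and *Mrpl36* (0.963) with *Thg1l* (0.952), and for *Slc16a10* they were *Cpsf4* (0.988), *Prr14l* (0.969) and *Cramp1l* (0.966). Only 3 genes had r above 0.95 with *Thrb* and 14 with *Slc16a10*, against 101 with *Thra*.

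The estimate for *Dio2* moved little between fits. It lay between 2.38 (limma-voom) and 2.42 (DESeq2) with all 6 libraries and between 2.21 (without KO a) and 2.70 (without KO b) when libraries were left out. That for *Thra* stayed negative, from −0.36 without KO b to −0.14 without KO a, so the distance of *Thra* from 0 rested in large part on KO a. Those for *Thrb* (−0.11 to 0.08) and *Slc16a10* (−0.02 to 0.30) lay on both sides of 0.

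**Figure D5:**
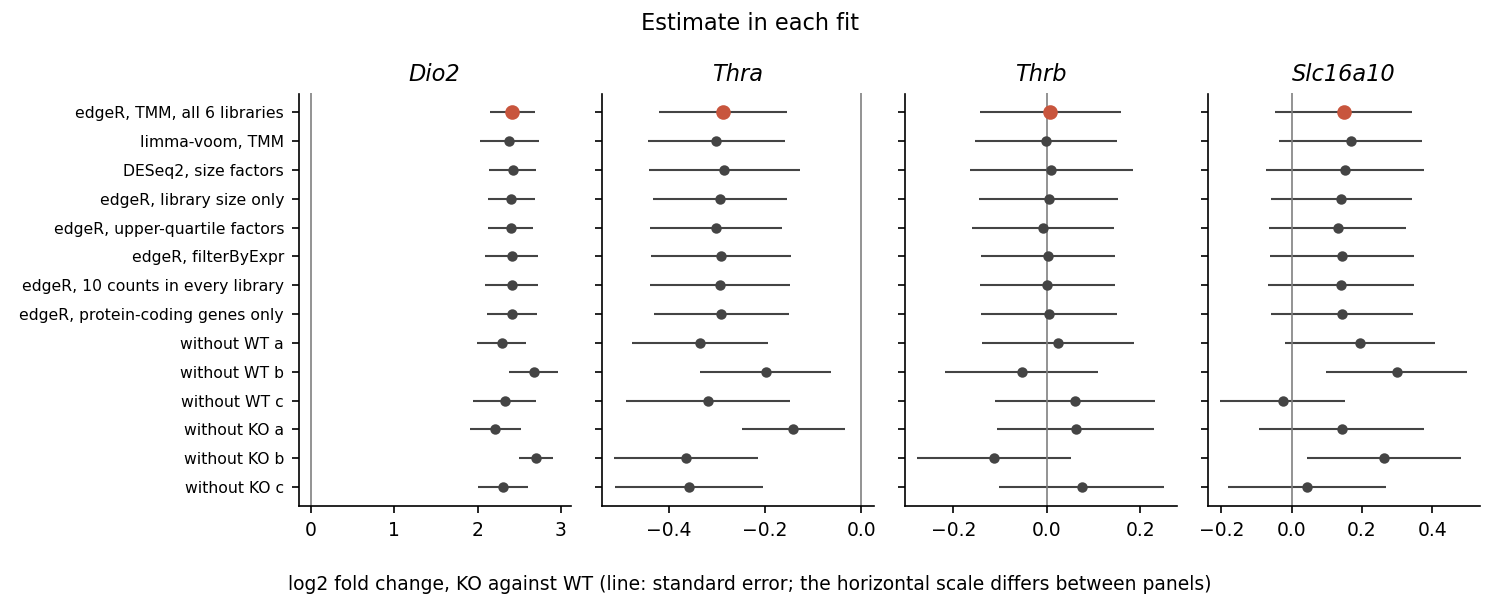
Log2 fold change of KO against WT with its standard error for Dio2, Thra, Thrb and Slc16a10 in each fit (rows), the edgeR fit with all libraries in red, and a horizontal scale of its own per gene. Dio2 stays between 2.21 and 2.70, Thra between −0.36 and −0.14, and Thrb and Slc16a10 cross 0 when single libraries are left out.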

How the data were processed

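RNA of sorted cells was selected for poly(A) tails and made into stranded libraries by the authors, who aligned the single-end reads to GRCm38 with TopHat2 2.1.0 (Bowtie 1.1), kept reads with a unique match and assigned them by strand to Ensembl genes. The deposited values are these whole-number counts per gene and library, neither normalized nor pooled.

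Every gene detected by 1 or more reads anywhere (21681 of 22295) was tested for KO against WT with edgeR 4.0.16 (TMM, glmQLFit, glmQLFTest) in R 4.3.3, with Benjamini-Hochberg adjustment over all of them and a threshold of 0.05. The standard error is the log2 fold change divided by the root of F. Samples are taken to be separate mice, as the study describes. TMM factors lay between 0.981 and 1.03, and each pair of libraries differed beyond counting noise (lowest ratio of chi-square to its degrees of freedom 10.7). GENCODE M21 gave exon lengths for 98.85% of genes, and RefSeq the promoter windows. Log2 CPM for likeness used a prior count of 2. Floors and intervals of counts cover counting error only.

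The 4 genes and all lists were chosen with earlier results of these data known. Named were these 4, *Itga3*, *Nr1d1*, *Rxra*, *Klf9*, *Hr*, the deiodinase and transporter genes, each group's most abundant gene per kilobase and the one with the largest change at 10 or more counts throughout, list genes that passed, and the 3 genes most like each of the 4. Others were named after their values were seen. Some genes this rule would name are not reported here and are left out of the plots, but they count in the totals. Alternatives were limma-voom 3.58.1, DESeq2 1.42.0, other scalings, count filters, protein-coding genes only and leaving out each library. The code was tested on simulated counts.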

Additional observations from a re-analysis of the deposited data

How the results depend on the processing

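No paired analysis was possible because no label ties the columns, which name single mice, to the replicate numbers of the samples. Of the 56 tested pathway genes, edgeR called 0 (11 at an unadjusted p below 0.05, a level that 11.5% of all tested genes reached), and so did limma-voom, library size only, upper-quartile factors, both count filters and protein-coding genes only. DESeq2 called 3 (*Cpt1a*, *Slc7a5* and *Slco4a1*), and leaving out single libraries gave 0 to 2, the 2 being *Cpt1a* and *Slc7a5* without WT a. Over all genes edgeR called 146, limma-voom 24, DESeq2 546, filterByExpr 15, at least 10 counts in every library 12 and protein-coding genes only 25. Leaving out 1 library gave 5 (WT c) to 521 (WT a), so the share of genes called depended on single libraries. Neither filter on counts nor limma-voom called any of the 4 genes described, while DESeq2 and the other scalings called *Dio2*. The estimates of the 4 genes moved by less than 1 SD between replicates under each alternative run, and their mean levels did so without TMM factors and with DESeq2 size factors. *Dio1* and *Dio3* are limited by depth.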
